A study of Mus musculus with 9 samples.

Results

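The keratins are the intermediate filament proteins of epithelial cells. Members were all genes of the count table whose symbol is Krt followed by a number and at most 1 letter, which gave 54 genes of 51912. They were examined in organoids, small epithelial fragments isolated from mammary tumours of FVB/NJ mice. The 5 E-cad-KO samples were Cdh1fl/fl and the 4 WT samples Cdh1+/+. Both groups carried MMTV::PyMT and (R26)pCA::mT/mG, that is, the polyoma middle T oncogene under the mouse mammary tumour virus promoter, which drives it in mammary epithelium, and a reporter that changes colour after Cre acts. Every sample received adenovirus carrying Cre overnight and was then grown for 48 h in collagen I with FGF2. Cre acts only in cells the virus reaches, so an E-cad-KO sample can hold cells that kept Cdh1. Since no label ties a sample to an animal, each p-value speaks of variation among the 9 libraries, which may be technical.

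Keratins form filaments as obligate pairs of a type I and a type II chain, and the pair a cell makes marks its lineage. Simple pairs, chiefly of keratins 8 and 18, are made by the luminal cells that line mammary ducts, whereas keratins 5 and 14 mark the basal and myoepithelial layer. Keratins 6, 16 and 17 appear in skin after wounding and in overgrowing or squamous epithelium. Filaments attach to desmosomes between cells and to hemidesmosomes on the matrix side. The families lie in clusters: 27 members are on GRCm38 chromosome 11 and 27 on chromosome 15, where the type I gene Krt18 stands beside the type II gene Krt8.

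Library totals ran from 44890302 to 64763645 counts, and levels are given as CPM, counts scaled to library size. Before TMM scaling factors of 0.94 to 1.042 were applied, 1 CPM stood for 44.9 to 64.8 counts. Cdh1, the targeted gene, measured 79.0 to 118 CPM in E-cad-KO and 150.3 to 246 CPM in WT without overlap (log2 fold change -1.05, SE 0.16, edgeR adjusted p = 0.0275). Epithelial RNA was present throughout, with Epcam at 690.4 to 864 CPM in E-cad-KO and 543 to 776 CPM in WT. The summed level of 8 macrophage markers was 7.89 to 30.6 CPM in E-cad-KO and 6.59 to 58.9 CPM in WT, and WT 4 was the library at 58.9 CPM. Fibroblast markers summed to 117 to 199 CPM in E-cad-KO and 58.3 to 322 CPM in WT, again highest in WT 4. Of 5 endothelial markers, all had a negative log2 fold change (median -0.94) and 0 were called; they summed to 3.58 to 6.35 CPM in E-cad-KO and 5.18 to 10.7 CPM in WT. In whole gels, fewer cells of a type and less RNA per cell cannot be told apart.

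The genes of the main simple pair and of the basal type II chain are shown by the DNA around their RefSeq start sites, because their levels frame the results. Each window runs from 250 bases before the start to 30 bases after it on the gene's own strand (GRCm38.p6, RefSeq). Capitals mark matches on either strand to 5 motifs: the TATA box core TATAAA, its variant ATAAAAG (which can overlap the core), the AP-1 motif TGANTCA, the AP-2 motif GCCNNNGGC and the GC box GGGCGG.
Krt8, chr15:102004313-102004592, minus strand: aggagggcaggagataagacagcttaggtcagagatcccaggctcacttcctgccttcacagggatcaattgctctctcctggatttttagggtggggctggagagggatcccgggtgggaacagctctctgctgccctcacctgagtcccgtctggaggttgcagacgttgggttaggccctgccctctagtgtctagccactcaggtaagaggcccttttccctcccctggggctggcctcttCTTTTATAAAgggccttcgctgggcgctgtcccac
Krt18, chr15:102027966-102028245, plus strand: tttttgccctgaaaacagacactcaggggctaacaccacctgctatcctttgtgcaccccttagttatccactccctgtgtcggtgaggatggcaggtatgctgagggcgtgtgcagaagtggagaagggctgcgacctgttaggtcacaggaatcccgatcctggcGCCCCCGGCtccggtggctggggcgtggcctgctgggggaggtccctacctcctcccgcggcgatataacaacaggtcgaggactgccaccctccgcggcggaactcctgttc
Krt5, chr15:101712876-101713155, minus strand: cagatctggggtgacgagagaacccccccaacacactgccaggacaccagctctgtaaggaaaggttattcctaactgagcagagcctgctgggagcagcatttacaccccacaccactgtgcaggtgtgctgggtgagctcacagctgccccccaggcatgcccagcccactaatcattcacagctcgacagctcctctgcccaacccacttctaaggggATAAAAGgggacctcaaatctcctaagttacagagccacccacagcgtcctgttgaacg

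RefSeq windows were matched for 36 of the 54 keratins, 14 of them among the 22 keratins named here. Krt15, Krt19, Krt6a, Krt6b, Krt16 and Krt17 had none. The RefSeq starts of Krt14 and Krt7 lie 1518 and 1360 bases from their GENCODE starts. A keratin with more than 1 window was counted if any of its windows held the motif. TATAAA occurred in 19 of the 36, against 13.1% of all 32851 windows, and ATAAAAG in 13 of the 36, against 5.19%. GGGCGG was found in 2 of the 36, against 34.7% of all windows, GCCNNNGGC in 7, against 15.4%, and TGANTCA in 1, against 7.46%. Krt8 has TATAAA beside its RefSeq start, which lies 140 bases inside the GENCODE start of the gene. The Krt5 window holds ATAAAAG at 29 to 23 bases before the start, and the Krt18 window holds GCCNNNGGC at 83 to 75 bases before it. Matched letters describe these windows and do not show binding.

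Of the 54 keratins, 27 had enough counts to be tested and 27 did not. No keratin was called by edgeR (0 of 27), while 9 had an unadjusted p under 0.05. Across all 17289 genes tested, 1.41% were called (244 genes; 0.908% higher and 0.503% lower) and 16.7% had an unadjusted p under 0.05. DESeq2 called 3 of the 27 keratins higher (Krt8, Krt18 and Krt80), and 4.13% of all genes higher. By limma-voom with quality weights 1 of the 27, Krt8, was called higher, against 1.70% of all genes. Of the 27 log2 fold changes, 19 were negative (median -0.36), while over all genes tested 52.0% were negative (median -0.01).

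**Figure D1:**
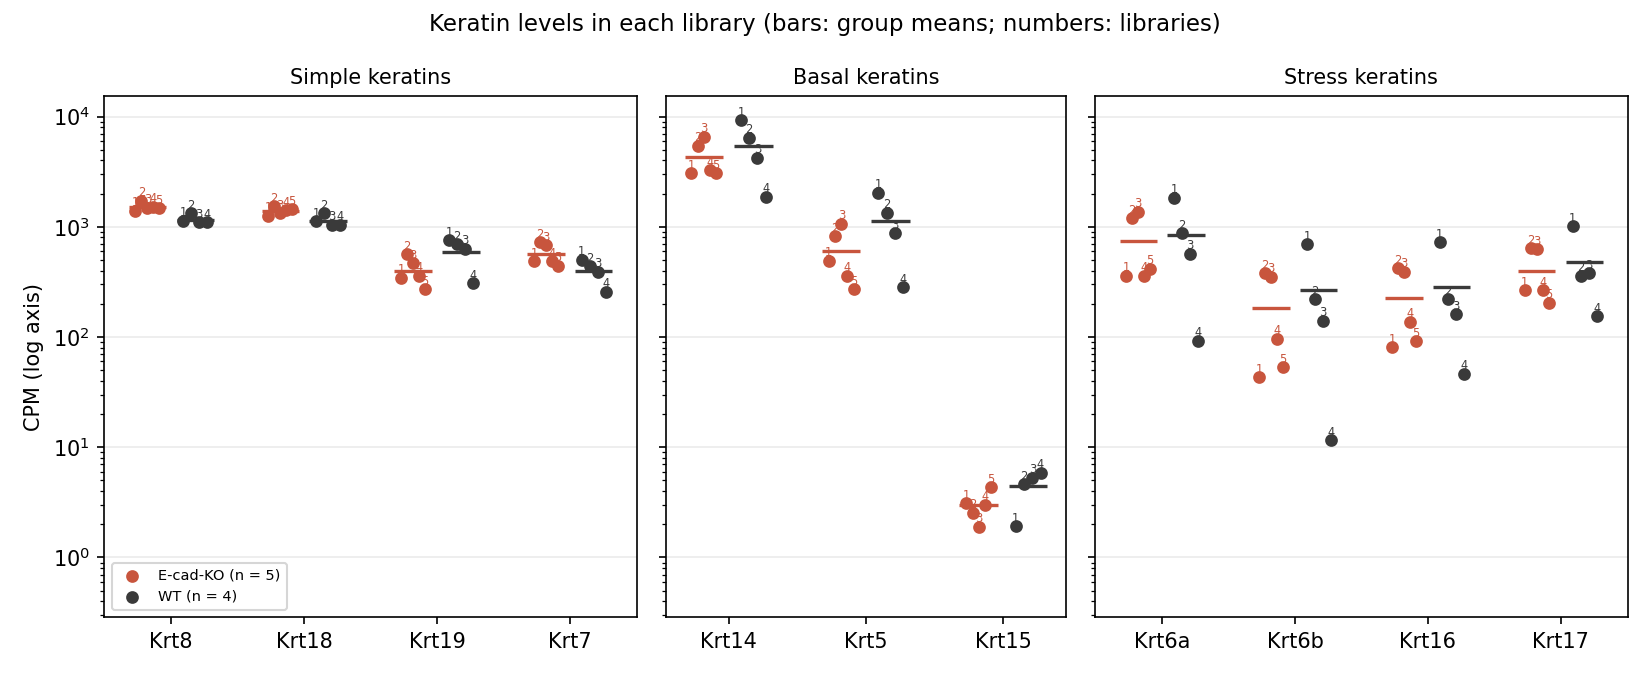
CPM on a log axis of the simple, basal and stress keratins in each library, E-cad-KO left of WT within each gene, with bars at the group means and numbers giving the library. Krt8 and Krt18 stay within a narrow band, while WT 1 is the highest and WT 4 the lowest WT library for Krt14, Krt5, Krt6a, Krt6b, Krt16 and Krt17.

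The simple keratins divided. Krt8, the type II chain of the luminal pair, was the keratin with the smallest p-value. Its level was 1393, 1724, 1490.1, 1524 and 1474 CPM in E-cad-KO 1 to 5, against 1131, 1328, 1099 and 1099 CPM in WT 1 to 4. Every E-cad-KO library was above every WT library, which held for 1 of the 27 tested keratins and for 4.28% of all genes tested. No keratin was lower without overlap, against 3.83% of all genes tested, and 8.11% of them separated in either direction. The Krt8 log2 fold change was 0.39 (SE 0.08), just outside the threshold (edgeR adjusted p = 0.0530). Krt8 passed it with a filter of at least 1 count (edgeR adjusted p = 0.0435), with one of 1 CPM in 4 libraries (edgeR adjusted p = 0.0413) and without WT 2 (edgeR adjusted p = 0.0460). Under these settings 0.481%, 1.58% and 0.491% of all genes tested were called higher, in the same order. Over the 18 alternatives Krt8 passed the threshold in 5 and not in 13. Its adjusted p ran from 0.000369 to 0.387, and its log2 fold change stayed positive.

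Krt18, its type I partner, stood at 1260.3, 1531, 1326, 1417 and 1441.5 CPM in E-cad-KO 1 to 5, against 1119, 1322.5, 1043 and 1039 CPM in WT 1 to 4. WT 2 lay among the E-cad-KO values, so the groups overlapped, and the log2 fold change of 0.30 (SE 0.09) was not called (edgeR adjusted p = 0.120). The pair kept a near constant ratio: per kilobase of transcript, Krt8 was 0.750 to 0.827 of Krt18 in E-cad-KO libraries and 0.737 to 0.776 of it in WT libraries. E-cad-KO 2 was the highest library of all for both genes, and WT 2 the highest WT library for both.

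Epithelial genes outside the keratins were set beside this pair. Of 12 epithelial genes that are not keratins, such as Epcam and Cldn7, 10 had a positive log2 fold change (median 0.18) and 0 were called. Their summed level was 1979 to 2428 CPM in E-cad-KO and 1482 to 2125 CPM in WT, lowest in WT 4. With libraries scaled to these 12 genes the median log2 fold change of all genes became -0.22, and Krt8 stood at 0.18 (edgeR adjusted p = 0.387) and Krt18 at 0.10 (edgeR adjusted p = 0.594).

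Krt7, a type II keratin of glandular ducts, had 487, 722, 679.6, 486 and 442 CPM in E-cad-KO 1 to 5, against 503, 440.2, 389.5 and 257 CPM in WT 1 to 4. Its groups overlapped through WT 1, and its log2 fold change came to 0.50 (SE 0.21; edgeR adjusted p = 0.271). Krt19, a type I keratin without the usual tail domain, pointed the other way. It stood at 343, 565, 466, 359 and 271 CPM in E-cad-KO 1 to 5, against 756, 692, 630.4 and 307 CPM in WT 1 to 4. Of the WT libraries, 3 lay above every E-cad-KO library and WT 4 lay among them. The Krt19 log2 fold change came to -0.57 (SE 0.28; edgeR adjusted p = 0.351). Per kilobase, Krt18 exceeded Krt19 2.97 to 5.84 times in E-cad-KO libraries and 1.62 to 3.71 times in WT libraries.

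**Figure D2:**
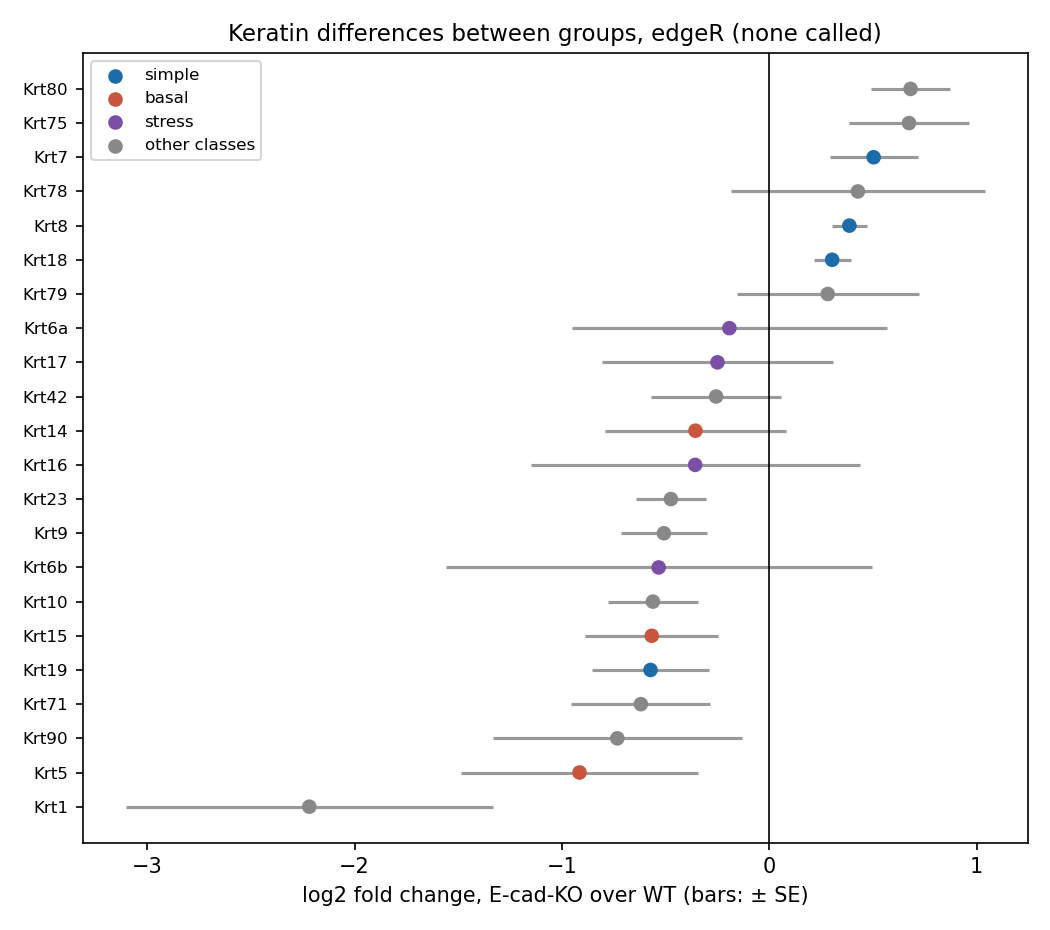
Log2 fold change, E-cad-KO over WT, of the 22 named keratins with bars of 1 SE, coloured by class. Krt8 (0.39) and Krt18 (0.30) have short bars right of 0, whereas the stress keratins have bars that cross 0.

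Basal keratins were abundant and uneven between libraries. Krt14, the basal type I chain, had the highest level per kilobase of the named keratins in both groups, at 2510 ± 954 CPM per kilobase in E-cad-KO (SD, n = 5) and 3214 ± 1861 CPM per kilobase in WT (SD, n = 4). In E-cad-KO 1 to 5 it held 3049, 5437.5, 6529.5, 3252 and 3045 CPM, against 9278, 6454, 4223 and 1874 CPM in WT 1 to 4. The WT libraries enclosed every E-cad-KO value, and the log2 fold change came to -0.36 (SE 0.43; edgeR adjusted p = 0.747). Krt5, its type II partner, held 489.98, 820.4, 1060.0, 359 and 271 CPM in E-cad-KO 1 to 5, against 2034, 1339, 871 and 284 CPM in WT 1 to 4. The Krt5 log2 fold change of -0.92 (SE 0.57) was not called (edgeR adjusted p = 0.471). E-cad-KO 3 was the highest E-cad-KO library for both, and WT 1 the highest of all.

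Krt5 made up less of its pair than Krt8 did of the luminal pair. Per kilobase, Krt5 was 0.0687 to 0.125 of Krt14 in E-cad-KO libraries and 0.117 to 0.169 of it in WT libraries, where WT 4 had the lowest WT ratio. Krt15, a basal type I keratin of skin, was scarce, at 3.11, 2.53, 1.90, 3.01 and 4.32 CPM in E-cad-KO 1 to 5, against 1.92, 4.60, 5.27 and 5.88 CPM in WT 1 to 4. It ran against Krt5 and Krt14 across WT: WT 4 was its highest library and WT 1 its lowest WT library. The Krt15 log2 fold change came to -0.57 (SE 0.32; edgeR adjusted p = 0.413).

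The stress keratins varied widely between libraries. Krt6a, a wound-induced type II chain, held 359, 1194, 1364, 358 and 417 CPM in E-cad-KO 1 to 5, against 1839, 875, 569 and 92.7 CPM in WT 1 to 4, a 19.8-fold range within WT. Krt6b, its near copy, held 43.1, 378, 351, 96.3 and 53.2 CPM in E-cad-KO 1 to 5, against 694, 221, 140.4 and 11.5 CPM in WT 1 to 4, a 60.2-fold range within WT. Libraries high in Krt6a (E-cad-KO 2, E-cad-KO 3 and WT 1) were also those high in Krt6b. Krt16 is a type I partner of keratin 6. It held 80.5, 419.9, 389, 138 and 91.8 CPM in E-cad-KO 1 to 5, against 722, 219.7, 160.1 and 46.5 CPM in WT 1 to 4. Krt17, another wound-induced type I chain, held 265, 639, 626, 266 and 205 CPM in E-cad-KO 1 to 5, against 1009, 362, 379 and 154 CPM in WT 1 to 4. In each of these genes WT 1 was the highest library of all and WT 4 the lowest of all, and the groups overlapped. Their log2 fold changes lay between -0.53 (Krt6b, SE 1.03) and -0.19 (Krt6a, SE 0.76), with edgeR adjusted p-values of 0.856 to 0.937. Without WT 1 they turned to 0.53 for Krt6a, 0.57 for Krt6b, 0.66 for Krt16 and 0.43 for Krt17, none of them called.

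Krt6a (chromosome 15, 101689910 to 101694307) and Krt6b (chromosome 15, 101676023 to 101680287) share much of their sequence, so reads could be split between them or discarded. Their coding sequences were 96.9% identical over 1659 bases in GENCODE. Bases 301 to 420 of each coding sequence show it, with the 7 differing bases in capitals.
Krt6a: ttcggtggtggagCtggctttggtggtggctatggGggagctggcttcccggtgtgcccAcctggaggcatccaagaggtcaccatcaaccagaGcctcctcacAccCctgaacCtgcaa
Krt6b: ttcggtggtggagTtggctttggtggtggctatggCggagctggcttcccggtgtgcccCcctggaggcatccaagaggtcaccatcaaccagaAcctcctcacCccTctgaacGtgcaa
Of all 50-base windows in the Krt6a transcript, 62.0% also occurred, on either strand, in transcripts of other genes, and 43.6% in those of Krt6b. Gm49428, which overlaps Krt6a on the other strand, held 15.5% of them. For Krt6b the share found in any other gene was 50.1%, for Krt16 37.6% and for Krt8 29.7%. Of all Krt16 windows, 25.2% also occurred in Gm11597, which held 1 count over the 9 libraries. A further partner of Krt16 was Krt14, with 12.4% of the windows. Krt14 held 2450430 counts over the 9 libraries, against 127896 for Krt16. Of all Krt8 windows, 26.9% also occurred in the pseudogene Krt8-ps. Krt8-ps held 4669 counts over the 9 libraries, against 693565 for Krt8. Krt14 shared 14.4% and Krt5 12.2% of its windows with other genes, while Krt18 shared 0.720%. Values of Krt6a and Krt6b taken apart are uncertain for this reason. Whether Krt14 reads entered the Krt16 values, or Krt16 reads were discarded, was not tested.

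**Figure D3:**
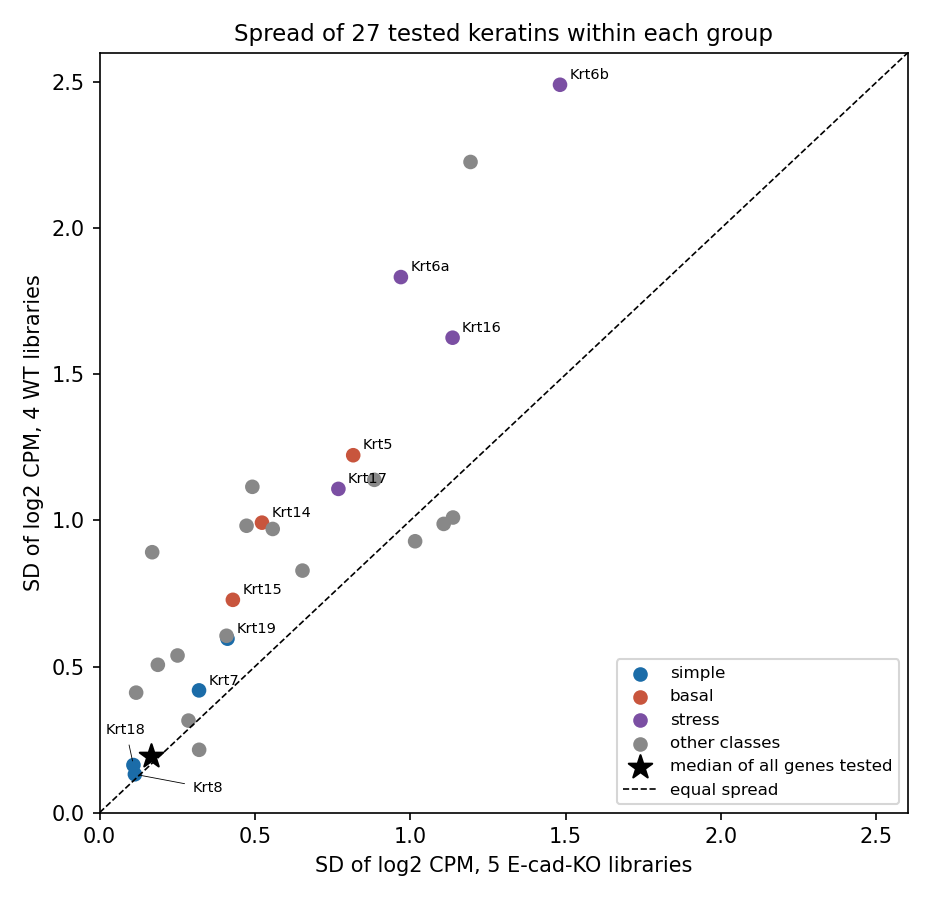
Standard deviation of log2 CPM among the 5 E-cad-KO libraries (horizontal) and among the 4 WT libraries (vertical) for each of the 27 tested keratins, with the median of all genes as a star. Krt8 and Krt18 lie by the star. Krt7, Krt19 and the stress and basal keratins lie above it and above the line of equal spread.

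The classes differed in their spread between libraries. The SD of log2 CPM was 0.11 in E-cad-KO and 0.13 in WT for Krt8, and 0.11 in E-cad-KO and 0.16 in WT for Krt18. It was larger for Krt7 (0.32 in E-cad-KO, 0.42 in WT) and Krt19 (0.41 in E-cad-KO, 0.60 in WT). The median SD of the 4 simple keratins was 0.22 in E-cad-KO and 0.29 in WT. Medians over all genes tested were 0.16 in E-cad-KO and 0.19 in WT. For the 4 stress keratins the median SD was 1.05 in E-cad-KO and 1.73 in WT, and for the 3 basal keratins 0.52 in E-cad-KO and 0.99 in WT. Krt6b varied more than 99.6% of all genes tested within E-cad-KO and more than 99.9% within WT. WT was the wider group for 23 of 27 tested keratins (85.2%), against 62.3% of all genes tested. No test of the difference in spread was made.

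WT 1 was the highest and WT 4 the lowest WT library for 16 of the 27 tested keratins, and for 8 of the 11 simple, basal and stress keratins. The same order held for 18.4% of all genes tested. Krt15 and Krt23 ran in the opposite order across WT. Krt23, a type I keratin, held 13.8, 13.0, 11.8, 11.6 and 11.4 CPM in E-cad-KO 1 to 5, against 13.1, 13.4, 18.3 and 23.9 CPM in WT 1 to 4 (log2 fold change -0.47, SE 0.17, edgeR adjusted p = 0.188).

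Marker genes, chosen here after their values were seen, fell on both sides of that order. Trp63, the transcription factor of basal epithelium, held 83.3, 101, 116, 78.1 and 75.3 CPM in E-cad-KO 1 to 5, against 109, 101, 83.0 and 46.2 CPM in WT 1 to 4. Krtdap, a protein of differentiating skin keratinocytes, held 8.32, 70.1, 51.4, 15.5 and 11.8 CPM in E-cad-KO 1 to 5, against 123, 29.4, 20.3 and 1.62 CPM in WT 1 to 4. Dsg3, a desmosomal cadherin of stratified epithelium, held 88.7, 204, 227, 103 and 91.4 CPM in E-cad-KO 1 to 5, against 305, 175, 94.7 and 42.1 CPM in WT 1 to 4. These 3 genes shared the WT order of Krt14 and Krt5. Acta2, the smooth muscle actin of contractile myoepithelial cells and of activated fibroblasts, ran against it, at 112, 74.2, 74.5, 68.4 and 48.8 CPM in E-cad-KO 1 to 5, against 35.0, 70.7, 133 and 144 CPM in WT 1 to 4. Myh11 and Mylk, contractile genes of the same cells, also had their highest WT level in WT 4 and their lowest in WT 1.

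Over whole marker lists, the 7 myoepithelial genes summed to 157 to 237 CPM in E-cad-KO and 160.03 to 262 CPM in WT, with 0 called. This list holds both Acta2 and Trp63, which ran in opposite orders across WT. All its members except Trp63 had their lowest WT level in WT 1. Skin and hair follicle genes, 8 in all with Krt1, Krt10 and Krt71 among them, summed to 17.9 to 83.9 CPM in E-cad-KO and 9.88 to 153 CPM in WT. Their late skin markers Lor and Flg did not exceed 0.565 CPM in any library, and Krt25 had counts in 1 library alone. The part of other cells in the keratin values was not tested.

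**Figure D4:**
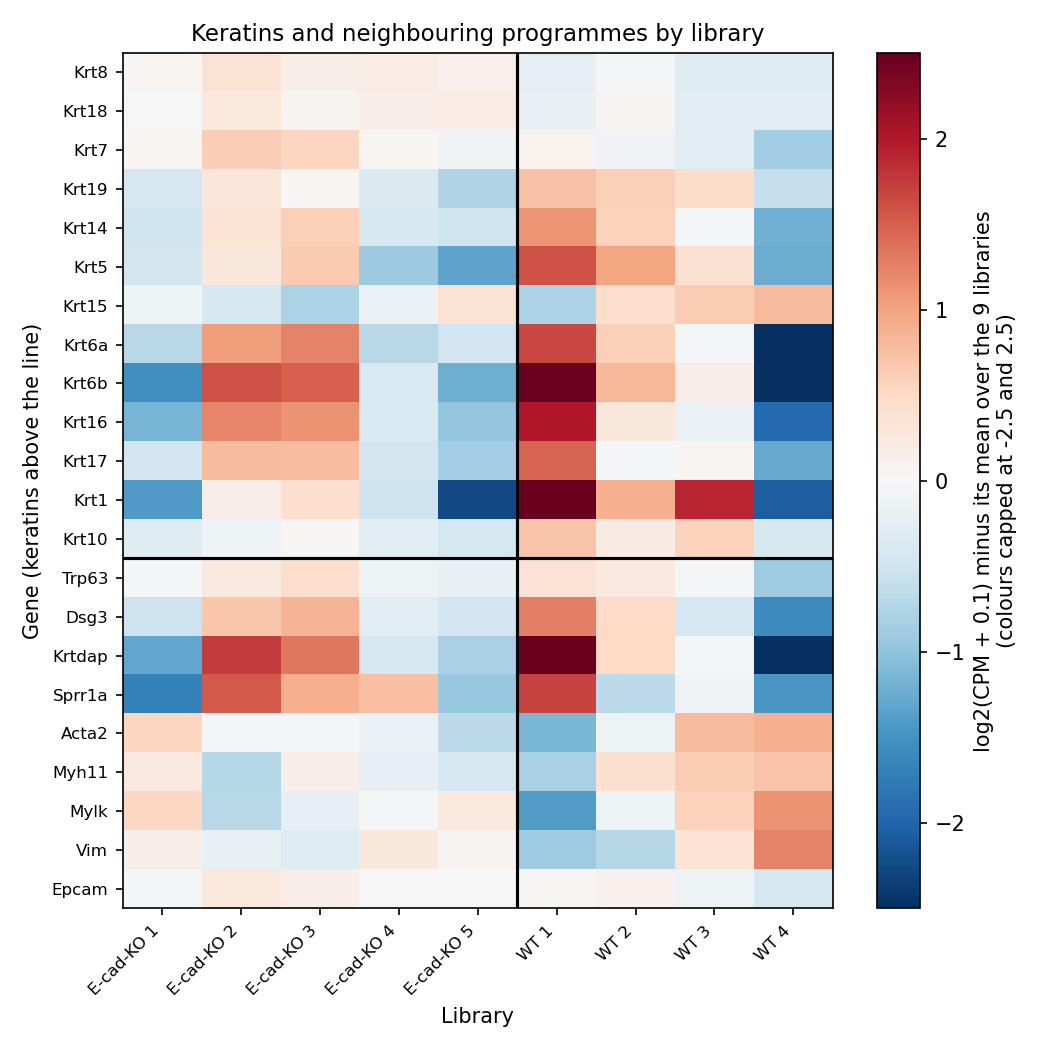
Log2(CPM + 0.1) of 13 keratins and 9 other genes in each library after subtracting the gene's mean over the 9 libraries, E-cad-KO left of WT, with colours capped at 2.5. WT 1, E-cad-KO 2 and E-cad-KO 3 are high for the stress keratins, Krtdap and Dsg3, and WT 4 is low for them and high for Acta2, Myh11 and Mylk.

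Among keratins of squamous differentiation, 6 of 11 were tested and 0 called. Krt1, the suprabasal type II chain of epidermis, held 0.685, 2.25, 2.73, 1.37 and 0.342 CPM in E-cad-KO 1 to 5, against 15.3, 3.82, 7.79 and 0.402 CPM in WT 1 to 4. WT 1, WT 2 and WT 3 were above all E-cad-KO libraries and WT 4 was near the lowest. Krt1 had the largest difference of the tested keratins in the edgeR fit of all libraries, a log2 fold change of -2.22 (SE 0.88, edgeR adjusted p = 0.247). Without WT 1 this was -1.45 (edgeR adjusted p = 0.449). Krt10, its type I partner, held 3.55, 4.09, 4.47, 3.59 and 3.20 CPM in E-cad-KO 1 to 5, against 7.27, 5.10, 6.63 and 3.30 CPM in WT 1 to 4. It had a log2 fold change of -0.56 (SE 0.22, edgeR adjusted p = 0.223), and was called lower without WT 4 (-0.74, edgeR adjusted p = 0.0487), as were 0.806% of all genes tested. Like Krt1, Krt10 placed WT 4 apart from the other WT libraries, which all lay above the E-cad-KO range.

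Krt80, a type II chain, held 5.32, 8.04, 8.66, 6.10 and 6.61 CPM in E-cad-KO 1 to 5, against 5.67, 3.66, 4.48 and 3.51 CPM in WT 1 to 4. Its log2 fold change came to 0.68 (SE 0.19; edgeR adjusted p = 0.105), and its groups overlapped between E-cad-KO 1 and WT 1. Krt79, a type II chain of the hair follicle canal, was the most abundant of the remaining keratins, at 83.4, 230.4, 195, 151 and 149 CPM in E-cad-KO 1 to 5, against 205, 191, 86.0 and 50.3 CPM in WT 1 to 4. It did not separate the groups (log2 fold change 0.28, SE 0.44, edgeR adjusted p = 0.813). Krt78 stood at 1.83 ± 1.19 CPM in E-cad-KO (n = 5, SD) and 1.35 ± 0.95 CPM in WT (SD, n = 4), and was not called (edgeR adjusted p = 0.790).

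Other named keratins were low, and Krt90 was the highest of them. Krt75, of the hair follicle companion layer, stood at 1.14 ± 0.21 CPM in E-cad-KO (n = 5, SD) and 0.716 ± 0.30 CPM in WT (SD, n = 4), with a log2 fold change of 0.67 (edgeR adjusted p = 0.278). Krt71, of the hair inner root sheath, stood at 1.33 ± 0.16 CPM in E-cad-KO (n = 5, SD) and 2.04 ± 0.95 CPM in WT (SD, n = 4), with a log2 fold change of -0.62 (edgeR adjusted p = 0.389). Krt9, known from palm and sole skin, had a log2 fold change of -0.51 (edgeR adjusted p = 0.242). Krt42 and Krt90 were at -0.26 and -0.73, with edgeR adjusted p-values of 0.746 and 0.599. Krt90 stood at 7.55 ± 3.99 CPM in E-cad-KO (n = 5, SD) and 12.5 ± 11.3 CPM in WT (SD, n = 4), with 29.2 CPM in WT 1. The 5 tested keratins under 1 CPM in both group means (Krt4, Krt27, Krt73, Krt84 and Krt87) had log2 fold changes of -0.83 to 0.07. Of the 27 keratins not tested, 7 had no count in any library. The other 20 had at most 38 counts over the 9 libraries, apart from Krt76 with 215. Hair and inner root sheath keratins made up 18 of the 27, Krt25 among them.

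**Figure D5:**
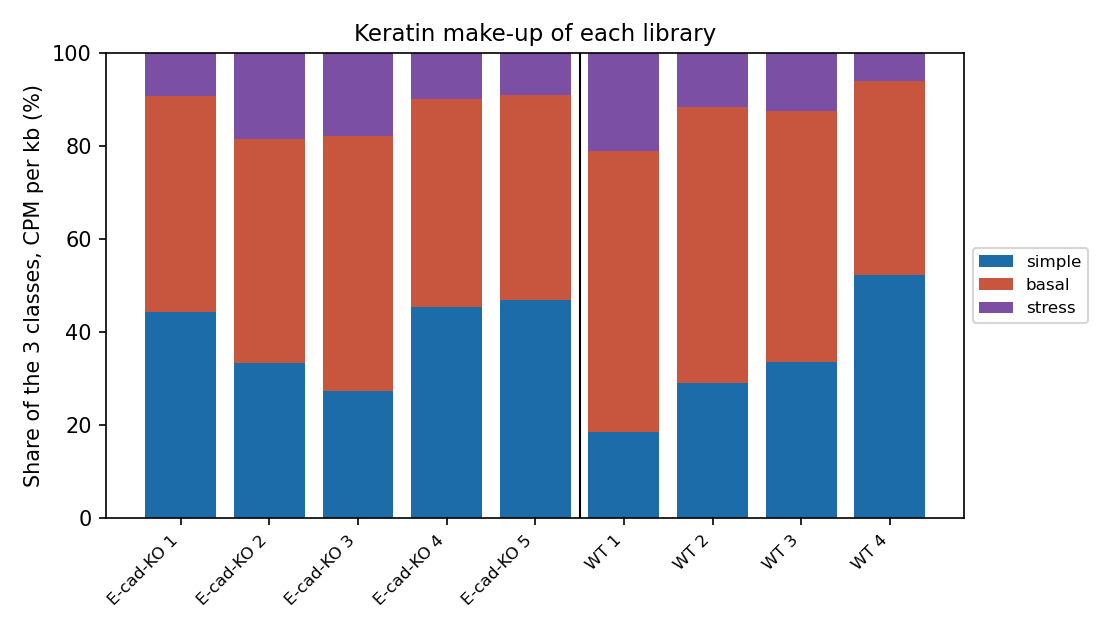
Stacked bars of the simple, basal and stress shares of the summed CPM per kilobase of these 11 keratins in each library, E-cad-KO left of WT. The simple share runs from 27.2% to 46.8% in E-cad-KO and from 18.5% in WT 1 to 52.2% in WT 4.

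Per kilobase, simple keratins made up 39.4% ± 8.64 of the 11 keratins of the main classes in E-cad-KO (SD, n = 5) and 33.3% ± 14.1 in WT (SD, n = 4). Basal keratins made up 47.7% ± 4.35 in E-cad-KO (SD, n = 5) and 54.0% ± 8.54 in WT (SD, n = 4). The stress share was 12.9% ± 4.81 in E-cad-KO (SD, n = 5) and 12.7% ± 6.26 in WT (SD, n = 4). The highest and lowest simple shares of all libraries were both in WT, in WT 4 and WT 1. The 54 keratins together took 0.814% to 1.43% of an E-cad-KO library's counts and 0.549% to 1.82% of a WT library's. Among the 11, the summed type II level per kilobase was 0.372 to 0.400 of the type I level in E-cad-KO and 0.339 to 0.371 of it in WT. The ratio counts RNA, not protein, and rests on GENCODE transcript lengths, of which that of Krt7 (4094 bases) is long for a keratin.

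Genes that anchor keratin filaments came next. Of 15 keratin anchor genes found in the table, 11 had a positive log2 fold change (median 0.11) and 0 were called. The smallest p-values were those of the hemidesmosomal plakin gene Dst (0.15, edgeR adjusted p = 0.260), the keratin-binding Fam83h (0.12, edgeR adjusted p = 0.364), the plakoglobin gene Jup (0.38, edgeR adjusted p = 0.388) and the plakophilin gene Pkp2 (0.14, edgeR adjusted p = 0.554). Of 14 epithelial transcription factor genes, 9 were positive (median 0.10) and 0 called. Elf5, a regulator of secretory luminal cells, stood at -0.38 (edgeR adjusted p = 0.103), Sox9 at 0.39 (edgeR adjusted p = 0.175), the luminal factor Gata3 at -0.21 (edgeR adjusted p = 0.183) and Klf5 at 0.38 (edgeR adjusted p = 0.360). Of 13 tested genes in the cornified envelope list, which also holds the desmosomal cadherins Dsg3 and Dsc3, 6 were positive (median -0.11) and 0 called. Ivl (-0.75), Tgm3 (-0.47), Dsc3 (-0.66) and Tgm1 (0.44) had the smallest p-values of these, with edgeR adjusted p-values of 0.265 to 0.638. Tgm3 was scarce, at 148 counts over the 9 libraries.

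Among 9 tested intermediate filament genes outside the keratins, 1 was called higher, against 0.908% of all genes tested. This was Lmna, the gene of the nuclear lamins A and C. It held 255, 269, 273, 239 and 254 CPM in E-cad-KO 1 to 5, against 195, 197, 192 and 190.4 CPM in WT 1 to 4 (log2 fold change 0.41, edgeR adjusted p = 0.0110). Its groups did not overlap, and 4.28% of all genes tested were higher without overlap. Lmna was not followed under the alternative settings. Synm, for synemin, stood at 0.64 (edgeR adjusted p = 0.123), the neurofilament gene Nefl at -2.96 (edgeR adjusted p = 0.209) and Lmnb1 at 0.20 (edgeR adjusted p = 0.348). Nefl had a mean of 0.10 CPM in E-cad-KO and 0.84 CPM in WT. It held 219 counts over the 9 libraries, 130 of them in WT 4, and its exons overlap Nefm on the other strand. Vim, the filament of mesenchymal cells, was added to these genes after its values were seen. It held 289, 229, 209.5, 319 and 275.5 CPM in E-cad-KO 1 to 5, against 142, 161, 332 and 622 CPM in WT 1 to 4. WT 4, lowest in Krt14 and the stress keratins, was the highest library in Vim.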

How the data were processed

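RNA came from flash-frozen gels by RNeasy and was sequenced after TruSeq stranded mRNA preparation, per the labels. The authors deposited whole-number counts for each gene without normalisation. The submitters' processing notes list HTSeq, TopHat2 and Bowtie2, and GRCm38 as build. Versions, annotation and strand setting were not given in the sources used here. Reads of a gene and of one on the other strand may therefore not be separated. Among the named keratins, exons of Krt5, Krt6a, Krt6b, Krt7, Krt8, Krt10, Krt75, Krt80 and Krt90 overlap such a gene.

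Symbols matched 51633 of 51912 genes. Counts were fitted with the quasi-likelihood test of edgeR 4.0.16 (R 4.3.3; TMM factors, robust dispersions, filterByExpr, 17289 genes tested, a design of genotype alone). P-values are two-sided and adjusted by Benjamini-Hochberg over all genes tested, with a call under 0.05. CPM use TMM-scaled library sizes, log2 CPM a prior count of 2, and lengths are those of the APPRIS principal transcript in GENCODE M21. Each SE is the log2 fold change divided by the square root of F. Routines were tested on simulated data.

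Named are the simple, basal and stress keratins that were tested, other keratins with a group mean of at least 1 CPM, and of each companion list the called genes and the 4 others with the smallest p. Members, lists and tests were chosen with earlier results of these data known. Alternatives were other size factors and filters, DESeq2 1.42.0, limma-voom with quality weights (limma 3.58.1) and a replicate block. Further ones left out each library, or WT 1 and WT 4 together. No 2 libraries agreed within sampling noise (smallest chi-square per degree of freedom 14.3).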

Additional observations from a re-analysis of the deposited data

Results flagged for a closer look

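In 52 groups of samples (26 keratins with at least 1 CPM in a library, in E-cad-KO and in WT), a library far from the rest of its group was sought, and 4 were found. Chance gives about 1 in 20 groups, or 2.6. Krt8 in WT 2 was high at 1328 CPM, with 1099 to 1131 CPM in the other WT libraries. Krt76, a keratin of oral epithelium that was not tested, was at 3.12 CPM in WT 4 (171 of its 215 counts), with 0.0319 to 0.0984 CPM in the other WT libraries. Krt42 was high in E-cad-KO 3 at 4.41 CPM, with 2.11 to 2.75 CPM in the other E-cad-KO libraries. It was also high in WT 1 at 5.84 CPM, with 2.37 to 2.84 CPM in the other WT libraries.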

How the results depend on the processing

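The number of genes called, 244, was 63 with scaling by non-keratin epithelial genes, 1206 by DESeq2, 509 by limma-voom and 79 without both WT 1 and WT 4. Leaving out each library gave 9 (without WT 3) to 334 (without WT 4), with 26 to 54 without an E-cad-KO library, 122 without WT 1 and 105 without WT 2. The split of calls, 157 higher and 87 lower, was 4 and 59 with scaling by non-keratin epithelial genes (25 of the 63 shared with the 244) and 123 and 151 with upper-quartile scaling. The number of keratins called, 0, was 1 with a filter of at least 1 count, 1 with a filter of 1 CPM in 4 libraries, 3 by DESeq2 and 1 by limma-voom. With each library left out it was 0 to 1: Krt8 higher without WT 2 and Krt10 lower without WT 4.

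With the replicate number as a block, edgeR called 0 genes (2418 at an unadjusted p under 0.05) and 0 keratins (4 at an unadjusted p under 0.05). Deviations of same-numbered libraries correlated at -0.324, 0.235, -0.0303 and 0.284 for numbers 1 to 4. Those of differently numbered libraries ran from -0.538 (WT 4 with E-cad-KO 2) to 0.533 (WT 1 with E-cad-KO 2). No label says what a shared number means, and these correlations cannot show whether same-numbered samples shared a preparation. Under this block the log2 fold change of Krt6a turned to 0.45, Krt6b to 0.66, Krt16 to 0.42 and Krt17 to 0.17, and Krt1 stood at -1.26. With each library left out, log2 fold changes ran from -0.64 to 0.031 for Krt14, -0.57 to 0.53 for Krt6a, -0.97 to 0.57 for Krt6b, -0.71 to 0.66 for Krt16, -0.54 to 0.43 for Krt17, -0.47 to 0.15 for Krt42 and -1.01 to 0.12 for Krt90, and the positive value of each came without WT 1. For Krt1 they ran from -2.62 (without WT 4) to -1.45 (without WT 1). Without both WT 1 and WT 4, Krt6a turned to 0.036, Krt6b to 0.032, Krt16 to 0.24, Krt17 to 0.11 and Krt42 to 0.10. None of these values was called, and the cause was not tested. Of 396 values of single keratins under the alternatives, 372 kept their direction and side of the threshold, 16 turned and 8 passed the threshold.

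Depth limits the keratins under 1 CPM, where a group mean rests on few counts.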
